A study of Mus musculus with 15 samples.

Results

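The 34 genes described here are markers of vascular endothelial cells, the cells that line blood and lymph vessels, in sorted cells of the mouse pancreas. They were taken as a fixed list by symbol, and all 34 had a probe set naming a single gene, out of 19938 genes with such a probe set on the array. Each was measured on 15 Affymetrix arrays in 5 groups of 3. No group was sorted for endothelial cells, so the list could not be checked against a purified endothelial sample.

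The mice came from matings of Sox9-EGFP or Ngn3-EGFP males to wild-type CD1 females. Pancreatic cells with high GFP signal from Sox9-EGFP animals were collected at the embryonic days e10.5 and e15.5 and at postnatal day 23 (p23), and those from Ngn3-EGFP animals at e15.5. GFP- cells were collected at p23 from Sox9-EGFP pups as well, so both p23 groups carried the same transgene. Sox9 marks pancreatic progenitors and later duct cells, and Ngn3 marks the precursors of the islet endocrine cells. The submitters included the Ngn3-GFP+ sort to show genes of the new endocrine progeny and the GFP- sort to show genes of acinar and endocrine cells. Several animals were pooled for each sort, so p-values here measure the spread between arrays of pooled animals. The protocols name no gate against endothelial cells, blood cells or dead cells, and the GFP- group is whatever carried no GFP. In such bulk samples, fewer cells of a type and less RNA per cell cannot be told apart.

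Endothelial cells hold together through the adherens junction protein VE-cadherin (Cdh5) and the adhesion molecule Pecam1. They take up growth signals from neighbouring tissue through the VEGF receptors Kdr, Flt1 and Flt4 and the angiopoietin receptor Tek. Their identity depends on ETS factors such as Erg and Fli1 and on the SOXF factors Sox7, Sox17 and Sox18, and in the pancreas vessels supply signals to the early bud and later form the dense capillary bed of the islets.

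Values are log2(intensity + 16), called log2 levels below, and changes are differences of these, which understates the change of dim genes. Values of 3 arrays are given in the order of replicates 1, 2 and 3. Genes above an intensity of 97.8 (log2 level 6.83) in at least 3 arrays were tested, which kept 16883 genes and 34 of the 34 members. Calls were made in limma, fitted to the 15 arrays together, where the p adjusted over all tested genes (Benjamini-Hochberg) was at most 0.05, and errors of changes are standard errors from that fit. The median log2 level of the whole table was 7.67. The arrays' median intensities lay between 165.5 and 211.7, and arrays of a group correlated at 0.950 to 0.995, with the Ngn3-GFP+ arrays the least alike. Levels of different genes are not set against each other, since each probe set has its own response. The share of all genes whose groups do not overlap was not computed, so a lack of overlap is given as a description of single genes.

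Promoter windows from RefSeq (build GRCm38.p6, 250 bases before to 50 bases after a transcription start) were used for 15 of the 34 members, 20 windows in all. They were searched on both strands for the letters GGAAGT, the core bound by ETS factors, AACAAT, bound by SOX factors, and AGATAA, bound by GATA factors, and no match overlapped a match of another motif in the windows printed. The ETS letters occurred in 6 of the 20 windows (30%), from 5 genes, against 23.8% of 32851 windows of the same length. The SOX and the GATA letters each occurred in 3 of the 20 (15%), against 10.7% and 11.2% of all windows. A rule left out any member window on a single chromosome, and it was not applied to the windows of all genes. Windows of a single gene are not independent, and a match is a description and no evidence of binding. The windows below belong to 4 members that were higher in GFP- than in Sox9-GFP+ cells at p23 and to Egfl7, which ran the other way with age. They were chosen after the search, as windows that hold a match. Those of Cd34 and Clec14a, also called higher in GFP- cells, held none of the 3 motifs, and that of Eng, called higher too, held the ETS letters and is not printed. The printed windows are Emcn at chr3:137340828-137341127 on the plus strand, Kdr at chr5:75978406-75978705 on the minus strand, Flt1 at chr5:147725962-147726261 on the minus strand, Tek at chr4:94739039-94739338 on the plus strand, and the first of 3 starts of Egfl7 at chr2:26580833-26581132 on the plus strand. Capitals mark the matched letters, read on either strand.
Emcn: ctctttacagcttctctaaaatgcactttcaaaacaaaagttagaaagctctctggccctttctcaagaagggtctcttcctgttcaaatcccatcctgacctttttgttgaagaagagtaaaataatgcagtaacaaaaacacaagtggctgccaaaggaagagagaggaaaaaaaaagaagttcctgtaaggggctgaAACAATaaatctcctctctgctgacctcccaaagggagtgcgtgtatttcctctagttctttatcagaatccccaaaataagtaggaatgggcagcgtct
Kdr: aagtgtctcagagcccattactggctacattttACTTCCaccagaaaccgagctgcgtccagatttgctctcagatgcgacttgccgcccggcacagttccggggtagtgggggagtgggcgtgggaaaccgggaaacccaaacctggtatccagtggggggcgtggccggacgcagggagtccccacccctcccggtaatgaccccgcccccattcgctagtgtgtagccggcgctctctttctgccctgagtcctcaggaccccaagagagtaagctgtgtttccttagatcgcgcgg
Flt1: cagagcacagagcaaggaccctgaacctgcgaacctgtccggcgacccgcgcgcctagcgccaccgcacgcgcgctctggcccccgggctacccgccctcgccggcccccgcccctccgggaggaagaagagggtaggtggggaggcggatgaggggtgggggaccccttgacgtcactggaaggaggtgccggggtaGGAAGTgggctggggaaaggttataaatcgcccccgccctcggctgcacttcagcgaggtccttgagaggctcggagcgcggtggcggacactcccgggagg
Tek: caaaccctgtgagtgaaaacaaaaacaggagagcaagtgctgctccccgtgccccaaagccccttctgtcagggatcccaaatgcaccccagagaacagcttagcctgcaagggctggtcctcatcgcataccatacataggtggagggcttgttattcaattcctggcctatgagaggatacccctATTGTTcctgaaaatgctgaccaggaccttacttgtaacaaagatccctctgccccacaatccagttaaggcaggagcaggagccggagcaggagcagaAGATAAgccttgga
Egfl7: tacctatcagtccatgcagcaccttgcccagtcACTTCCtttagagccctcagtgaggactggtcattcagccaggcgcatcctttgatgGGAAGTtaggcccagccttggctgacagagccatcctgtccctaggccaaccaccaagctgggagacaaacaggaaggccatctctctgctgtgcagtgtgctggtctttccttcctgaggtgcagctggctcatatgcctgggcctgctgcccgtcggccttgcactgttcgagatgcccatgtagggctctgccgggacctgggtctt
Counted from the transcription start to the match's first printed base, the ETS letters lay at -217 in Kdr, at -52 in Flt1 and at -217 and -160 in Egfl7. The SOX letters lay at -50 in Emcn and at -63 in Tek, and the GATA letters at 36 in Tek.

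Most members were dim in the GFP+ sorts. In Sox9-GFP+ cells the group mean exceeded the table median for 8 of 34 members at e10.5, for 5 at e15.5 and for 10 at p23. It did so for 8 in Ngn3-GFP+ cells and for 19 in GFP- cells. In the same order of groups, 55.7%, 54.0%, 56.1%, 56.1% and 52.6% of all genes exceeded the table median. The group mean exceeded the limit of 6.83 for 26, 18, 32, 28 and 32 members. The mean log2 level over the 34 members ranged, among Sox9-GFP+ arrays, from 7.02 to 7.21 at e10.5, from 6.92 to 7.01 at e15.5 and from 7.41 to 7.65 at p23. It ranged from 7.16 to 7.38 in the Ngn3-GFP+ arrays and from 8.13 to 8.36 in the GFP- arrays. The 3 GFP- arrays stood above the 12 others, and the Sox9-GFP+ arrays at p23 stood above the 9 embryonic arrays. Within a group the members' SD had a median between 0.127 and 0.216, and the widest was 0.71, for Cd34 in Ngn3-GFP+ cells.

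**Figure D1:**
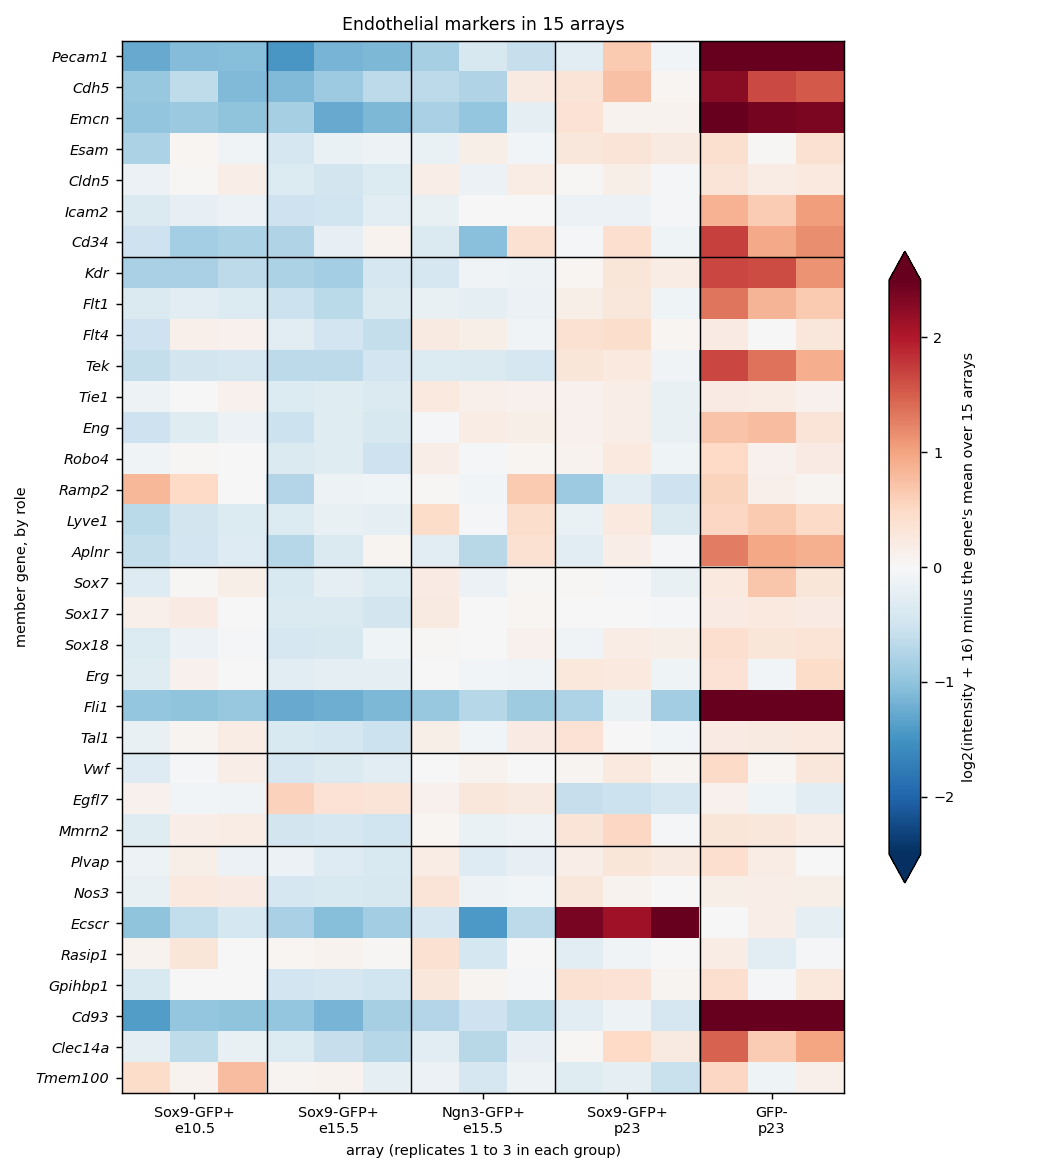
Log2 level of each member (rows, by role) in each of the 15 arrays (columns), less that gene's mean over the arrays, with colours clipped at the ends of the bar. The GFP- columns are high in Pecam1, Cdh5, Emcn, Kdr, Tek, Fli1 and Cd93, and Ecscr is high in the 3 Sox9-GFP+ arrays at p23 instead.

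At p23, the adhesion molecules Pecam1, Cdh5 and Emcn, the VEGF receptors Kdr and Flt1, the angiopoietin receptor Tek and the factor Fli1 were higher in GFP- cells than in Sox9-GFP+ cells, while Cldn5, Esam and the VEGF receptor Flt4 were not called. Of the 34 members, 18 (52.9%) were called higher, where 14.5% of all tested genes were, and 1 (2.94%) was called lower, where 21.5% of all genes were. Tek, Clec14a and Tmem100, counted among the 18, reached the 3 arrays needed for testing only with GFP- arrays, so their calls are no independent support. The members' median change was 0.45, against -0.07 over all genes. By at least 2-fold, 9 of 34 members were called higher (26.5%), against 5.62% of all genes. The direction of the median and these 19 calls held under quantile normalization and under median centring of the arrays, which called 23 and 21 members higher.

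Among the junction and adhesion genes 5 of 7 (71.4%, against 14.5% of all tested genes) were called higher. Pecam1, an adhesion molecule of endothelial cells, platelets and leukocytes, stood at 7.38, 8.32 and 7.61 in the Sox9-GFP+ sort and at 10.38, 10.499 and 10.80 in GFP- cells. Every GFP- array was above every Sox9-GFP+ array, by 2.79 ± 0.21 on average (adjusted p = 8.02e-08, limma). Cdh5 read 7.87, 8.29 and 7.59 against 9.80, 9.20 and 9.08, again without overlap, a difference of 1.45 ± 0.26 (adjusted p = 5.24e-04). Emcn, the endothelial sialomucin endomucin, read 7.41, 7.12 and 7.13 against 9.88, 9.44 and 9.38. The groups were far apart, by 2.35 ± 0.19 (adjusted p = 1.88e-07), and its promoter window above holds the SOX letters, as does that of Tek. Icam2 and Cd34, surface proteins that blood cells carry too, were higher by 0.96 ± 0.12 and 1.18 ± 0.31.

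The tight junction and adhesion genes Cldn5 and Esam were not called. Cldn5, the claudin of endothelial tight junctions, stood at 7.72, 7.84 and 7.64 in the Sox9-GFP+ sort and at 8.003, 7.88 and 7.94 in GFP- cells. All 3 GFP- arrays were higher, but the difference of 0.21 ± 0.12 missed the threshold (adjusted p = 0.199). Esam read 7.55, 7.60 and 7.49 against 7.67, 7.30 and 7.64, and the groups overlapped.

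Of the 10 receptors 7 (70%, against 14.5% of all tested genes) were called higher and 0 lower (against 21.5%). Kdr, the main signalling receptor for VEGF-A, stood at 6.89, 7.14 and 7.04 in the Sox9-GFP+ sort and at 8.51, 8.47 and 7.98 in GFP- cells, a difference of 1.30 ± 0.16 (adjusted p = 1.47e-05). Flt1, which binds VEGF-A with little signalling, read 7.38, 7.53 and 7.14 against 8.59, 8.08 and 7.89, higher by 0.84 ± 0.16. Tek, the angiopoietin receptor, read 7.20, 7.14 and 6.80 against 8.56, 8.25 and 7.80, higher by 1.16 ± 0.16 (adjusted p = 5.83e-05). The groups overlapped in none of these 3 genes, and in each the lowest GFP- array was replicate 3. Eng, a co-receptor of the TGF-beta family, stood at 7.25, 7.30 and 6.96 against 7.85, 7.91 and 7.46, and Lyve1, a hyaluronan receptor of lymphatic endothelium and some macrophages, at 8.14, 8.56 and 7.95 against 8.82, 8.97 and 8.78. Both were called higher, by 0.57 ± 0.15 and 0.64 ± 0.17. The apelin receptor Aplnr was higher by 1.09 ± 0.24 and Ramp2, the partner of the adrenomedullin receptor, by 0.82 ± 0.26.

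The remaining 3 receptors did not separate the p23 sorts. Tie1, the orphan partner of Tek, read 7.21, 7.27 and 6.91 in Sox9-GFP+ cells against 7.31, 7.28 and 7.20 in GFP- cells. Flt4, the VEGF-C receptor of lymphatic endothelium, read 7.04, 7.10 and 6.70 against 6.86, 6.66 and 6.94. The Flt4 values overlapped, with a difference of -0.13 ± 0.17 (adjusted p = 0.62), and Robo4, a guidance receptor that steadies vessel walls, differed by 0.20 ± 0.13 (adjusted p = 0.242).

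Of the 6 transcription factors Fli1 and Sox7 (33.3%, against 14.5% of all tested genes) were called higher. Fli1, an ETS factor of endothelial and blood cells, stood at 7.36, 7.97 and 7.25 in the Sox9-GFP+ sort and at 11.53, 11.67 and 12.09 in GFP- cells. It showed the largest difference of the 34 members, 4.23 ± 0.18 (adjusted p = 2.29e-10). Sox7 read 7.09, 6.9996 and 6.87 against 7.30, 7.76 and 7.35, higher by 0.48 ± 0.15 (adjusted p = 0.0209). Its SOXF relatives were not called: Sox17 read 6.85, 6.86 and 6.80 against 7.06, 7.10 and 7.06, and Sox18 read 7.16, 7.44 and 7.39 against 7.67, 7.56 and 7.58. In both, every GFP- array was higher, but the adjusted p was 0.0755 and 0.091. Erg, the ETS factor most closely tied to endothelial identity, read 7.18, 7.17 and 6.82 against 7.29, 6.86 and 7.38. Tal1, a factor of blood and endothelial precursors, read 7.77, 7.43 and 7.35 against 7.61, 7.64 and 7.65. Neither Erg nor Tal1 separated the groups, with differences of 0.12 ± 0.15 and 0.12 ± 0.13.

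Among the remaining members, Cd93, a surface lectin of endothelial and myeloid cells, stood at 8.70, 8.83 and 8.55 in the Sox9-GFP+ sort and at 12.11, 11.87 and 11.94 in GFP- cells. The difference of 3.28 ± 0.14 was second to that of Fli1. The endothelial lectin Clec14a, the BMP target Tmem100 and Egfl7 were higher by 0.78 ± 0.21, 0.55 ± 0.19 and 0.41 ± 0.12. Tmem100 averaged 6.03 in the Sox9-GFP+ sort and 6.58 in GFP- cells, both below the limit for testing of 6.83. Vwf, the clotting factor stored in endothelial granules, read 7.40, 7.57 and 7.39 against 7.82, 7.38 and 7.61, and Plvap, the diaphragm protein of fenestrated capillaries such as those of islets, read 7.53, 7.69 and 7.60 against 7.80, 7.56 and 7.38. Both overlapped and neither was called. Nos3, Mmrn2, Rasip1 and Gpihbp1 were not called either, with differences between -0.05 and 0.08.

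**Figure D2:**
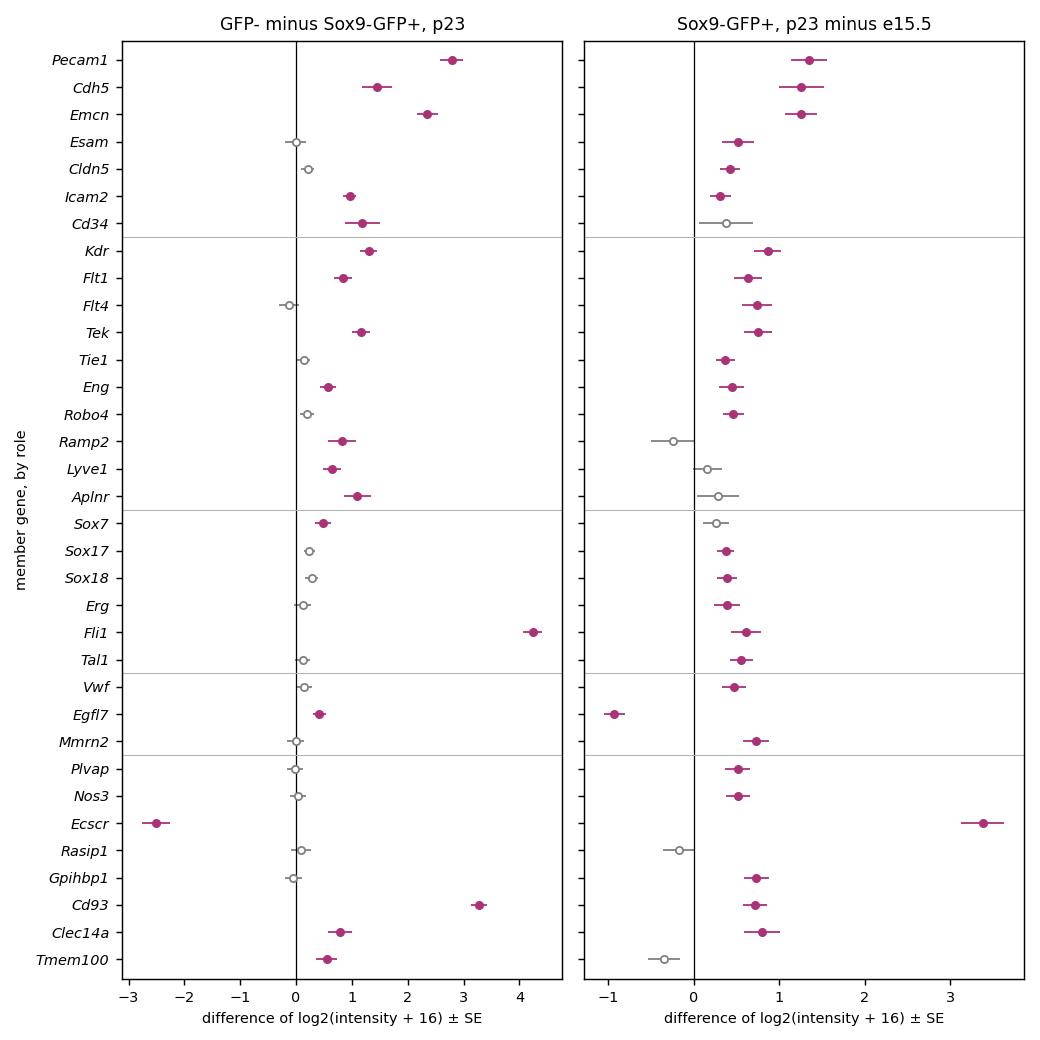
Change of each member (rows, by role) between the p23 sorts (left) and from e15.5 to p23 in Sox9-GFP+ cells (right), as differences of log2(intensity + 16) with bars of 1 SE, filled where the adjusted p was at most 0.05. Fli1, Cd93, Pecam1 and Emcn are furthest right on the left panel, Ecscr is lowest there, and on the right panel Ecscr is highest and Egfl7 lowest.

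Leukocyte genes moved with the members in this comparison. Of 19 leukocyte markers 17 (89.5%, against 14.5% of all genes) were called higher in GFP- cells and 0 lower (against 21.5%), with a median change of 3.05. Itgb2, Cd79a and Cd3g, counted among the 17, reached the 3 arrays needed for testing only with GFP- arrays, so their calls are no independent support. Their mean level ranged from 10.53 to 11.01 over the GFP- arrays, from 7.49 to 8.11 over the other p23 arrays and from 6.77 to 7.41 over the embryonic arrays. Ptprc, the pan-leukocyte protein CD45, stood at 8.12, 10.64 and 10.09 in the Sox9-GFP+ sort at p23 and at 14.28, 14.41 and 14.64 in GFP- cells. Across the 15 arrays, the mean of the 34 members and the mean of the leukocyte markers correlated at r = 0.957, where all points share the difference between the 3 GFP- arrays and the rest. The part of leukocytes in the members' differences was not tested.

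The members that blood cells are known to carry as well were split from the others with the values known, so the split supports nothing by itself. They are Pecam1, Fli1, Cd93, Cd34, Icam2, Tal1, Lyve1, Erg, Esam, Eng and Vwf. Of these 11, 7 (63.6%) were called higher in GFP- cells, with a median of 0.64. Of the 23 others, 11 (47.8%) were called higher and 1 (4.35%) lower, with a median of 0.28. Of all tested genes, 14.5% were called higher and 21.5% lower. Emcn, Cdh5, Kdr, Tek and Aplnr were the 5 of the 23 higher by at least 2-fold. Mural cell markers, of the cells that wrap vessels, were called higher for 6 of 12 (50%) and lower for 4 (33.3%), against 14.5% and 21.5% of all genes, so they moved both ways. Pdgfrb, the pericyte receptor, read 6.73, 7.01 and 6.76 against 7.54, 7.30 and 7.42, higher by 0.59 ± 0.16 (adjusted p = 8.14e-03). Rgs5, a regulator of G protein signalling used as a pericyte marker, read 11.35, 11.14 and 11.59 against 10.32, 10.19 and 10.05. Every GFP- array was lower, and the difference was -1.18 ± 0.39 (adjusted p = 0.0301). Cspg4, the pericyte proteoglycan NG2, differed by -0.40 ± 0.12 (adjusted p = 0.017). Epithelial markers were called lower for 10 of 10.

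**Figure D3:**
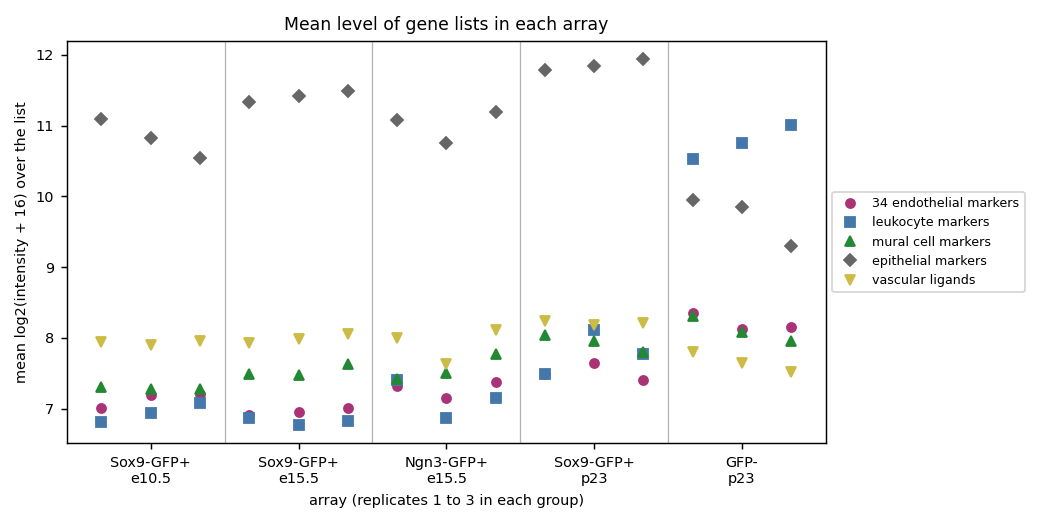
Mean log2(intensity + 16) over the genes of each list in each of the 15 arrays, by group. Levels of different lists cannot be compared, but along each list the members rise from at most 7.65 to at least 8.13 and the leukocyte markers from at most 8.11 to at least 10.53 in the GFP- arrays, while the epithelial markers drop to at most 9.95.

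From e15.5 to p23, most members rose in Sox9-GFP+ cells, by small steps. Of the 34, 26 (76.5%) were called higher, where 30.7% of all tested genes were, and 1 (2.94%) was called lower, where 26.8% were. The median change was 0.49 against 0.05 over all genes. By at least 2-fold, 4 members rose (11.8%, against 4.89% of all genes), namely Pecam1, Cdh5, Emcn and Ecscr. With median centring, the median over all genes went from 0.05 to -0.11, and the fit called 19 members higher and 2 lower, and quantile normalization called 13 higher and 2 lower, so the count depended on how the arrays were set to each other. The members' median stayed above 0, at 0.34 and 0.26. Without replicate 2 at p23, 19 were called higher.

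Pecam1 stood at 6.22, 6.50 and 6.54 on Sox9-GFP+ arrays at e15.5, below each of its p23 values given above, and rose by 1.35 ± 0.21 (adjusted p = 1.42e-04). Cdh5 stood at 6.44, 6.65 and 6.89 and rose by 1.26 ± 0.26 (adjusted p = 1.47e-03). Emcn stood at 6.20, 5.78 and 5.92 and rose by 1.25 ± 0.19 (adjusted p = 1.23e-04). None of these overlapped with p23. Among the Sox9-GFP+ arrays at p23, most members were highest in replicate 2, among them Cdh5, Kdr, Flt1, Flt4 and Clec14a. Of the members known from blood cells, Pecam1, Fli1, Cd93, Cd34, Lyve1, Esam, Eng and Vwf were highest in replicate 2. The others of that kind were Tal1 and Erg, highest in replicate 1, and Icam2, highest in replicate 3. The leukocyte markers were highest in replicate 2 too (mean 8.11), and Ptprc was lowest in replicate 1. Emcn, Tek, Sox7, Nos3 and Gpihbp1 were also highest in replicate 1, and Egfl7, Ecscr and Rasip1 in replicate 3. The part of leukocytes was not tested.

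Of the 10 receptors 7 (70%, against 30.7% of all tested genes) were called higher, each by less than 2-fold. Kdr stood at 6.06, 5.995 and 6.42 at e15.5 and rose by 0.87 ± 0.16 (adjusted p = 5.90e-04). Tek stood at 6.24, 6.24 and 6.42 and rose by 0.75 ± 0.16. Flt4 stood at 6.38, 6.19 and 6.07 and rose by 0.74 ± 0.17, and it was not called between the p23 sorts. Flt1 (6.70, 6.56 and 6.89), Eng (6.61, 6.83 and 6.75) and Tie1 (6.76, 6.80 and 6.73) rose by 0.63 ± 0.16, 0.44 ± 0.15 and 0.37 ± 0.11, and Robo4 by 0.46 ± 0.13. Flt1, Eng and Tie1 were dim at e15.5, and each stood wholly below its p23 group. Lyve1, at 7.97, 8.12 and 8.09, overlapped with p23 and was not called, nor were Aplnr (0.28 ± 0.24) and Ramp2 (-0.24 ± 0.26).

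Of the transcription factors 5 of 6 (83.3%, against 30.7% of all tested genes) were called higher, by 0.37 to 0.61. Fli1 stood at 6.86, 6.90 and 6.99 at e15.5 and rose by 0.61 ± 0.18, and Tal1, at 7.03, 6.97 and 6.87, rose by 0.55 ± 0.13. Sox17 (6.50, 6.50 and 6.40), Sox18 (6.83, 6.85 and 7.14) and Erg (6.64, 6.68 and 6.68) rose by 0.37 ± 0.10, 0.39 ± 0.12 and 0.39 ± 0.15. Sox7, at 6.68, 6.81 and 6.71, lay below all p23 arrays but changed by only 0.26 ± 0.15 (adjusted p = 0.154). The calls of Sox17, Sox18 and Erg were lost under both scalings named above, and that of Tal1 was kept under both.

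Among the other genes, Esam (6.85, 7.10 and 7.14) rose by 0.51 ± 0.19 and Cldn5 (7.34, 7.22 and 7.35) by 0.43 ± 0.12. Vwf (6.91, 6.96 and 7.08) rose by 0.47 ± 0.14 and Plvap (7.23, 7.05 and 6.99) by 0.51 ± 0.15. These 4 were not called between the p23 sorts, and at e15.5 each lay wholly below p23. Gpihbp1, which holds lipoprotein lipase on capillaries, stood at 7.32, 7.38 and 7.31 and reached 8.17, 8.17 and 7.87, a rise of 0.73 ± 0.15 (adjusted p = 1.22e-03). Nos3, the endothelial nitric oxide synthase, rose from 6.66, 6.69 and 6.68 to 7.36, 7.16 and 7.07. Leukocyte markers rose here too, 15 of 19 (78.9%, against 30.7% of all genes) with a median of 0.77. Ptprc rose by 3.06 ± 0.43 from 6.60, 6.49 and 6.56, and the part of leukocytes was not tested. The calls of Pecam1, Cdh5, Emcn, Kdr, Tek, Flt4, Tal1, Nos3, Mmrn2, Gpihbp1, Cd93, Clec14a, Ecscr and Egfl7 held in each alternative fit in which they were tested, 14 of the 27.

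Ecscr and Egfl7 stood apart from the other members. Ecscr, a small membrane protein of endothelial migration and survival, read 7.91, 7.66 and 7.85 in Sox9-GFP+ cells of e15.5 and 11.09, 10.84 and 11.64 in those of p23. The rise of 3.38 ± 0.25 (adjusted p = 1.74e-07) was the largest of the list, and in GFP- cells it stood at 8.70, 8.89 and 8.47, a difference of -2.50 ± 0.25 (adjusted p = 2.12e-06). It was the single member called lower in GFP- cells, opposite to Pecam1, Cdh5 and Emcn. In RefSeq's gene order (GRCm38.p6) its neighbours include Dnajc18, 1700066B19Rik and Sting1. Dnajc18 fell by 0.62 ± 0.21 from e15.5 to p23, while 1700066B19Rik and Sting1 rose by 0.58 ± 0.13 and 1.29 ± 0.37. None of these 3 differed between the p23 sorts at the threshold (adjusted p = 0.0649, 0.858 and 0.707).

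Egfl7, a secreted protein of the vessel matrix, was highest where most members were lowest. In Sox9-GFP+ cells the e10.5 arrays read 8.64, 8.47 and 8.45, the e15.5 arrays 9.11, 8.91 and 8.87, and the p23 arrays 7.98, 8.02 and 8.12. It rose by 0.44 ± 0.12 to e15.5 (adjusted p = 0.0163) and then fell by 0.93 ± 0.12 (adjusted p = 2.97e-05), with no overlap at either step. GFP- cells stood between, at 8.64, 8.44 and 8.26, and Ngn3-GFP+ cells at 8.65, 8.82 and 8.77. Across the 15 arrays Egfl7 correlated at r = -0.49 with the mean of the other members, as a description. Within Egfl7, in RefSeq, lies the microRNA gene Mir126a, a regulator of VEGF signalling in endothelial cells. Its mature 3p arm, from RefSeq, lies at chr2:26591402-26591423 on the plus strand (GRCm38.p6), with the seed, bases 2 to 8, in capitals.
miR-126a-3p: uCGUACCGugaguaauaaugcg
The probe set for Mir126a lay between 4.48 and 4.95 in all 15 arrays, below the limit for testing, so no level of it can be set beside that of Egfl7.

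**Figure D4:**
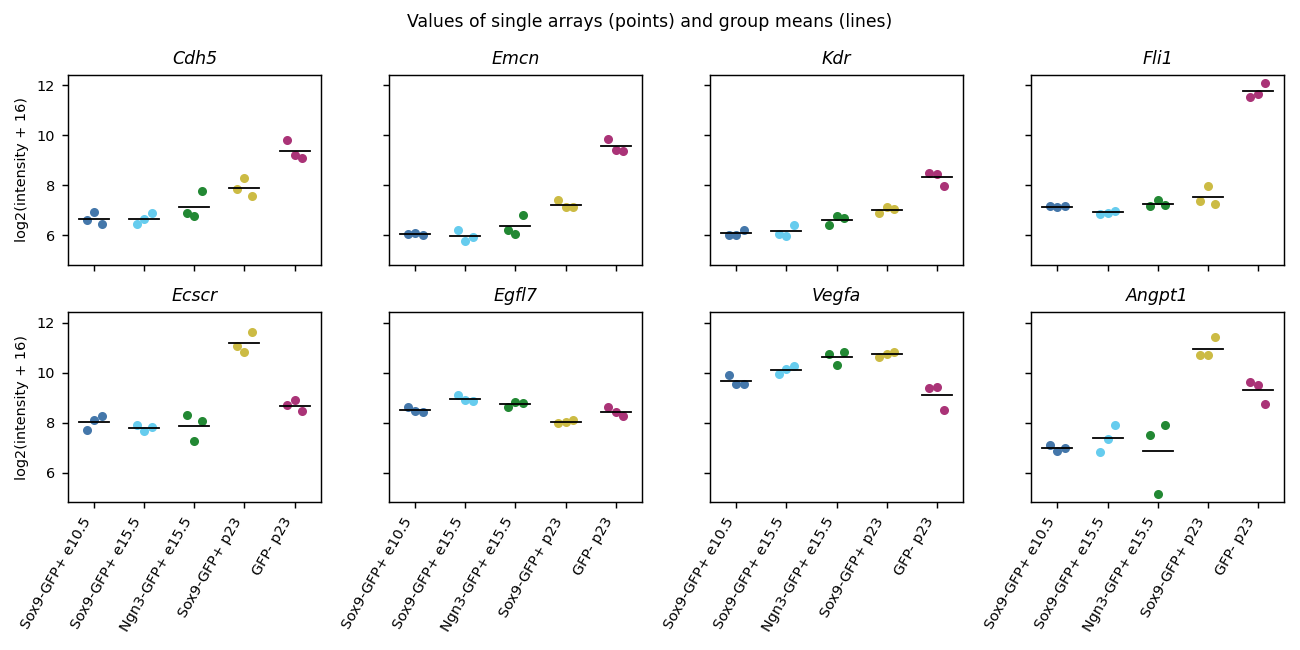
Log2(intensity + 16) of 6 members and the ligands Vegfa and Angpt1 in the 5 groups, with points for single arrays and lines for group means of 3. Cdh5, Emcn, Kdr and Fli1 are highest in GFP- cells, Ecscr, Vegfa and Angpt1 are higher in Sox9-GFP+ cells at p23 than in GFP- cells, and Egfl7 is lowest in Sox9-GFP+ cells at p23.

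From e10.5 to e15.5 few members changed in Sox9-GFP+ cells. Of the 34, 1 (2.94%) was called higher, where 12.2% of all tested genes were, and 8 (23.5%) were called lower, where 16% were. The median was -0.20 against -0.05 over all genes, and under median centring, which moved the median of all genes to 0.11, 1 member was called higher and 1 lower with a median of -0.04. Under quantile normalization Egfl7 was the only call and the median was 0.00. Among all called genes the share called higher was 43.3% as deposited, 73.7% after centring and 63% after quantile normalization, so the list had no direction that held across scalings. Sox17 was the fall that held after centring. Ramp2 read 8.59, 8.25 and 7.74 on e10.5 arrays and 7.02, 7.63 and 7.66 on e15.5 arrays, a fall of 0.76 ± 0.26 (adjusted p = 0.0422). Sox17 stood at 6.99, 7.08 and 6.88 and fell by 0.52 ± 0.10 (adjusted p = 2.33e-03), and Nos3 stood at 6.89, 7.32 and 7.28 and fell by 0.49 ± 0.14 (adjusted p = 0.0219).

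The junction genes and VEGF receptors were dim at e10.5 as well. Pecam1 stood at 6.40, 6.59 and 6.60 at e10.5, Cdh5 at 6.60, 6.92 and 6.45, and Kdr at 6.03, 6.03 and 6.20. All 3 overlapped with e15.5, and so did Flt4 (6.15, 6.80 and 6.77) and Tek (6.30, 6.43 and 6.48). Flt1 read 6.89, 6.96 and 6.91 and Fli1 7.16, 7.12 and 7.17, in both slightly above e15.5 without a call. Arrays 1 and 2 at e10.5 and array 1 at e15.5 carried embryonic globin signal (Hbb-y at 10.48, 11.20 and 9.98 against 5.85 to 6.35 elsewhere). Without those 3 arrays 0 members were called higher and 1 lower, and leaving out any single Sox9-GFP+ array of either day except replicate 1 at e10.5 left 2 calls.

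Taking e10.5 against p23, 11 of 34 members were called higher (32.4%, against 17.7% of all genes) and 3 lower (8.82%, against 23.3%). The median change was 0.32 against -0.01 over all genes, and 13 were called higher and 3 lower under both quantile normalization and median centring. Ecscr, Cdh5 and Pecam1 rose by 3.16 ± 0.25, 1.26 ± 0.26 and 1.24 ± 0.21, and Emcn, Kdr, Cd93 and Tek by 1.16 ± 0.19, 0.94 ± 0.16, 0.85 ± 0.14 and 0.65 ± 0.16. Ramp2, Tmem100 and Egfl7 fell by 1.00 ± 0.26, 0.81 ± 0.19 and 0.49 ± 0.12. Tmem100 read 6.85, 6.49 and 7.17 on the e10.5 arrays, 6.48, 6.48 and 6.17 on the e15.5 arrays, and 6.10, 6.15 and 5.84 on the p23 arrays, so it ended wholly below where it began. None of the 6 transcription factors was called over this interval: Sox7 (6.73, 7.08 and 7.19 at e10.5), Sox18 (6.92, 7.10 and 7.22), Erg (6.63, 7.04 and 6.91) and Tal1 (7.21, 7.48 and 7.59) overlapped with p23. Tie1 (6.96, 7.09 and 7.21), Eng (6.62, 6.85 and 6.99), Cldn5 (7.55, 7.71 and 7.86) and Vwf (7.02, 7.28 and 7.49) overlapped as well, while Esam (6.47, 7.31 and 7.17) rose by 0.56 ± 0.19. Plvap stood at 7.25, 7.51 and 7.22 and Lyve1 at 7.63, 7.85 and 7.97, neither called. Without the 3 arrays with globin signal 6 members were called higher and 1 lower, and without replicate 1 at e10.5 7 were called higher and 2 lower.

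Between the e15.5 sorts, 15 of 34 members (44.1%) were called higher in Ngn3-GFP+ than in Sox9-GFP+ cells, where 23.3% of all genes were, and 0 were called lower, where 18.4% were. The median difference was 0.37 against 0.04 over all genes. This count rested on the scaling: median centring moved the median of all genes to -0.14 and called 4 members higher and 1 lower, and quantile normalization called 2 higher. The share called higher among all called genes was 55.9% as deposited, 28.2% after centring and 42.1% after quantile normalization. Without replicate 1 of Sox9-GFP+ cells 7 members were called, without replicate 2 9 were, and without the 3 arrays with globin signal 7 were. In each of these fits the median difference stayed above 0.

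The called differences were at most 0.65, and of the 15 genes Lyve1, Gpihbp1 and Cldn5 exceeded the table median in the mean of Ngn3-GFP+ cells. Pecam1 stood at 6.85, 7.27 and 7.10 in Ngn3-GFP+ cells, above the Sox9-GFP+ arrays of the same day by 0.65 ± 0.21 (adjusted p = 0.0231). Gpihbp1 stood at 8.09, 7.87 and 7.77, above them by 0.57 ± 0.15 (adjusted p = 0.0103), and was the only call that held in each alternative fit. Flt4, at 6.88, 6.82 and 6.58, was higher by 0.55 ± 0.17. Tal1 (7.56, 7.34 and 7.61), Tie1 (7.34, 7.22 and 7.21) and Sox17 (7.09, 6.85 and 6.91) were higher by 0.54 ± 0.13, 0.49 ± 0.11 and 0.48 ± 0.10. Lyve1, Eng, Kdr, Cldn5, Vwf, Sox18, Robo4, Nos3 and Icam2 were the other calls, with differences of 0.35 to 0.54.

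Cdh5 (6.90, 6.80 and 7.77) and Emcn (6.22, 6.07 and 6.81) were not called between the e15.5 sorts. In both, replicate 3 of Ngn3-GFP+ cells stood above the other arrays of that day. The same array was highest of its group in Cd34, at 8.12 beside 7.39 and 6.70, and in Aplnr, at 7.92 beside 7.28 and 6.84. It also had the highest mean of mural markers of the 9 embryonic arrays, 7.78. Flt1 (7.05, 7.01 and 7.09), Tek (6.56, 6.53 and 6.47), Sox7 (7.26, 6.90 and 7.08), Erg (6.95, 6.87 and 6.84) and Fli1 (7.18, 7.40 and 7.23) lay above all Sox9-GFP+ arrays of the day and missed the threshold. The arrays' median intensities were also higher, at 189.3 to 207.1 in Ngn3-GFP+ cells against 165.5 to 174.6 in Sox9-GFP+ cells of that day. Esam, Plvap and Tmem100 overlapped, at 7.10, 7.40 and 7.19, at 7.56, 7.05 and 7.17 and at 6.26, 5.97 and 6.27. Kdr stood at 6.43, 6.76 and 6.71, Eng at 7.11, 7.33 and 7.28, Lyve1 at 8.77, 8.27 and 8.76, Sox18 at 7.29, 7.25 and 7.36, Cldn5 at 7.85, 7.53 and 7.87, and Vwf at 7.34, 7.43 and 7.32. Leukocyte markers were called higher for 6 of 19 (31.6%, against 23.3% of all genes) and lower for 1 (5.26%, against 18.4%). Ptprc stood at 7.19, 6.93 and 6.93, and the part of leukocytes was not tested.

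**Figure D5:**
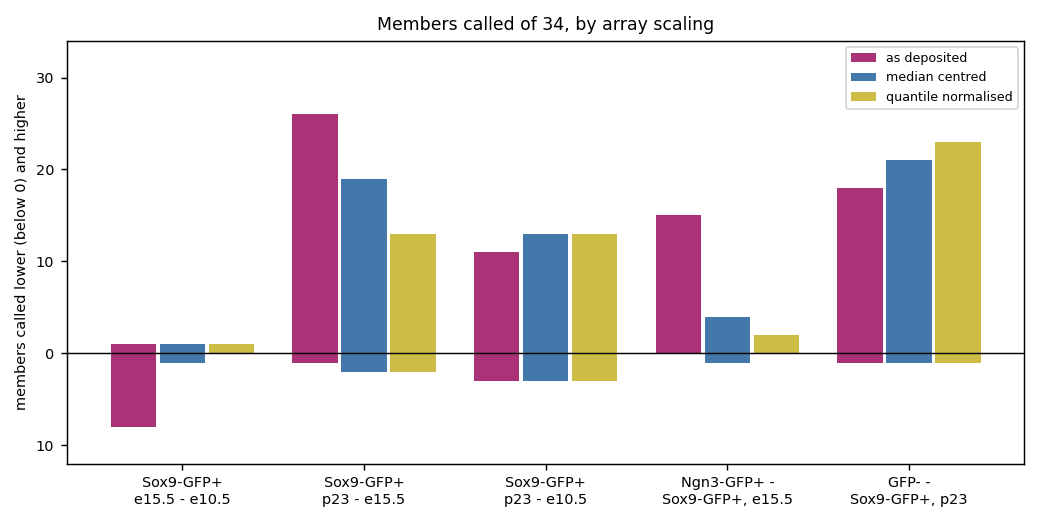
Number of the 34 members called higher (bars above 0) and lower (bars below 0) in each comparison, with the arrays as deposited, median centred or quantile normalised. The bars for the GFP- comparison and for e10.5 to p23 change by at most 5 calls, while the bar of 8 falls from e10.5 to e15.5 shrinks to 1 after centring and 0 after quantile normalization, and that of 15 higher calls in Ngn3-GFP+ cells to 4 and 2.

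A list of signals to vessels (VEGF, angiopoietin, apelin, ephrin, semaphorin and Notch ligands, Cxcl12, Slit2 and others) holds ligands of some of these receptors and of others. Of 19 tested, 7 (36.8%) were called lower in GFP- cells, where 21.5% of all genes were, 1 (5.26%) was called higher, where 14.5% were, and 11 were not called. Their median was -0.18 against -0.07 over all genes. Vegfa, the ligand of Kdr and Flt1, stood at 10.61, 10.75 and 10.83 in the Sox9-GFP+ sort and at 9.39, 9.42 and 8.50 in GFP- cells, a difference of -1.63 ± 0.22 (adjusted p = 3.22e-05). On the e10.5 arrays it already read 9.90, 9.54 and 9.57, and it rose by 1.06 ± 0.22 from there to p23. Angpt1, the activating ligand of Tek, read 7.10, 6.88 and 6.99 on the e10.5 arrays, 6.84, 7.37 and 7.91 on the e15.5 arrays and 10.72, 10.71 and 11.41 on the p23 arrays of Sox9-GFP+ cells. The rise from e15.5 was 3.58 ± 0.53 (adjusted p = 1.08e-04), and GFP- cells, at 9.62, 9.52 and 8.75, differed from it by -1.65 ± 0.53 (adjusted p = 0.0237). Replicate 2 of Ngn3-GFP+ cells stood at 5.17 for Angpt1, beside 7.51 and 7.91. Sema3e, the ligand of Plxnd1, the apelin receptor ligand Apela and the ephrin Efnb2 were lower in GFP- cells (changes of -2.34 ± 0.21, -1.82 ± 0.23 and -1.65 ± 0.25). Apela averaged 6.46 in the Sox9-GFP+ sort at p23 and 4.64 in GFP- cells, both below the limit for testing of 6.83. Angpt2, the context-dependent ligand of Tek, read 8.05, 8.06 and 8.31 on the e10.5 arrays and 7.36, 7.15 and 7.09 on the e15.5 arrays, a fall of 0.94 ± 0.17 (adjusted p = 2.18e-03).

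Other receptors and partners of these pathways split. Of 20 tested, 11 (55%) were called higher in GFP- cells and 7 (35%) lower, against 14.5% and 21.5% of all genes, and S1pr1, the sphingosine phosphate receptor of endothelium and lymphocytes, was higher by 4.20 ± 0.28. Adgrl4 and Calcrl, an adhesion receptor of endothelium and the receptor that Ramp2 partners, were higher by 2.69 ± 0.17 and 2.49 ± 0.41. Adgrl4 reached the 3 arrays needed for testing only with GFP- arrays, so its call is no independent support. Nrp1, a VEGF co-receptor that epithelial cells use as well, stood at 8.04, 8.68 and 8.03 in the Sox9-GFP+ sort at p23 and at 9.50, 9.31 and 9.09 in GFP- cells, higher by 1.05 ± 0.22. Among the e15.5 sorts it read 9.72, 9.15 and 9.46 on Sox9-GFP+ arrays and 7.40, 7.83 and 8.17 on Ngn3-GFP+ arrays, a difference of -1.64 ± 0.22 (adjusted p = 3.08e-04). Nrp2 fell by 2.27 ± 0.24 from e10.5 to e15.5.

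Of 18 further transcription factors of endothelial cells, 7 (38.9%) were called higher in GFP- cells and 6 (33.3%) lower, against the same 14.5% and 21.5%. Mef2c and Lmo2, both known from lymphocytes too, were higher by 4.71 ± 0.22 and 3.20 ± 0.22. Prox1, which specifies lymphatic endothelium and is also a factor of pancreatic progenitors and ducts, stood at 11.80, 11.58 and 11.88 in the Sox9-GFP+ sort at p23 and at 8.20, 7.78 and 7.23 in GFP- cells. Etv2, the ETS factor that starts the endothelial programme in the embryo, lay between 6.01 and 6.72 in the 15 arrays and was not tested. Of 18 capillary and vessel type genes, 15 (83.3%) were called higher and 0 lower from e15.5 to p23 in Sox9-GFP+ cells, against 30.7% and 26.8% of all genes, and Fabp4 and Car4 rose by 3.10 ± 0.31 and 2.86 ± 0.25 and Icam1 by 2.70 ± 0.23. Between the p23 sorts 6 of them (33.3%) were higher in GFP- cells, among them Cd36 by 2.10 ± 0.18 and Fabp4 by 1.84 ± 0.31, and 4 (22.2%) were lower, among them Pdpn, at 10.12, 11.01 and 10.51 against 7.82, 8.83 and 8.40. Ackr1, of these 18, reached the 3 arrays needed for testing only with GFP- arrays, so its value there is no independent support. Several of these genes are known from epithelial or fat-storing cells as well. From e15.5 to p23 in Sox9-GFP+ cells the ligands (31.6% higher, 21.1% lower) and the erythroid and platelet markers (30% and 10%) were called higher about as often as all genes, while 10 of 20 other receptors and 9 of 18 further transcription factors were called higher (50% each) and 2 and 1 lower.

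Across the 15 arrays, 11 of the 34 members correlated above 0.9 with the mean of the other members and 5 below 0.5, namely Egfl7, Rasip1, Tmem100, Ramp2 and Ecscr. These correlations share the step between GFP- and the other arrays and are given as descriptions. The genes outside the list whose values ran most like the members' mean were Ptprb, the phosphatase that restrains Tek (r = 0.989), Runx3, Fcrla, Slc39a5, Hgfac, Hsd11b1, Esm1, S1pr1, Speer4a and Il18rap, all at r = 0.967 or above. Ptprb stood at 7.28, 7.88 and 7.16 in the Sox9-GFP+ sort at p23 and at 9.002, 8.71 and 8.47 in GFP- cells, and Esm1, a proteoglycan of sprouting endothelium, at 7.52, 7.22 and 6.83 against 8.78, 8.29 and 8.22. In each of the 10 genes every GFP- array stood above every other array, which the choice by correlation with the members' mean made likely. The same 10 genes correlated at 0.896 to 0.993 with the mean of the leukocyte markers.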

How the data were processed

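Expression was measured on 15 Affymetrix mouse gene arrays. Per the labels' protocols, cells were dissociated with collagenase B and, if needed, trypsin, and poly(A) RNA was amplified by a NuGEN Ovation kit. The submitters' processing notes name PLIER and Affymetrix Expression Console 1.1, and the values the authors deposited are linear intensity values per probe set. How arrays were normalized to each other was not stated in the sources used here. The arrays were pairwise different. Their number limits the precision.

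Of 35557 probe sets, 21789 named 1 gene, 1621 several and 12147 none, by GEO's platform annotation, and 21698 of those naming 1 gene were matched by gene identifier. They covered 19938 genes, each represented by the probe set of highest mean. Each member had 1 probe set. Values were taken as log2(intensity + 16), genes were tested if 3 or more arrays exceeded the table's 30th percentile, and limma 3.58.1 in R 4.3.3 fitted the 15 arrays with a mean per group (10 residual degrees of freedom). An exact rank test of 3 against 3 arrays cannot go below a p of 0.1, so none was used.

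The members and lists were chosen with earlier results of these data known. All 34 members were named by role, 20 of them and the largest called changes of each comparison with every array's value, and up to 3 called genes of each further list. Mir126a and the neighbours of Ecscr were added after their values were seen. Alternatives changed the offset (1 or 64), the scaling (quantile or median), the filter (none, or the table median), the summary over probe sets, the groups in the fit (2 only), the variance model (trended and robust, or with weights per array) and the block (replicate number). Every array was left out in turn, and, after seeing the data, those with globin signal were left out together. The fit was tested on simulated data with known changes. Promoter and microRNA sequences are RefSeq's (GRCm38.p6). Figures used Python 3.11.15 with matplotlib 3.10.9.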

Additional observations from a re-analysis of the deposited data

How the results depend on the processing

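No called member changed sign in any of the alternatives run. The number of members called moved by over 1.5 times as follows. From e10.5 to e15.5, 9 calls became 1 under quantile normalization, 2 under median centring, 3 with the filter at the table median (which left 18 members tested) and 1 without the 3 arrays with globin signal, and leaving out 1 array at a time gave 2 to 11. From e15.5 to p23, 27 became 15 under quantile normalization and 13 with that same filter, and 20 to 27 with 1 array left out. From e10.5 to p23, 14 became 7 without the globin arrays, and 9 to 18 with 1 array left out. Between the e15.5 sorts, 15 became 2 under quantile normalization, 5 under median centring, 6 with the stricter filter and 7 without the globin arrays, and 7 to 17 with 1 array left out. The filter at the median tests fewer members, and the cause of the other shifts was not tested. Between the p23 sorts, 19 calls lay between 15 and 24 in the alternatives run, 15 to 19 with 1 array left out. From e15.5 to p23 the share of higher calls among all called genes was 53.4% as deposited, 39.4% after centring and 49.1% after quantile normalization.

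Of 30 pairs of same-numbered arrays from different groups, 3 correlated above 0.1 in their deviations from the group means (r from -0.487 to 0.198). The labels do not say whether same-numbered p23 sorts came from the same pool, and these correlations cannot exclude it. With the replicate block, 6 members were called from e10.5 to e15.5, 26 from e15.5 to p23, 12 from e10.5 to p23, 14 between the e15.5 sorts and 19 between the p23 sorts. Calls that held in each alternative in which the gene was tested numbered 0 of 9, 14 of 27, 7 of 14, 1 of 15 and 14 of 19 in the same order. Most members lie near the dim end of the table, and the fit of the array weights stopped before it converged.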
